A study of Oryza sativa with 12 samples.

Results

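The nuclear genes of photosynthesis were followed in rice pedicels, the short stalks that carry the grains. They are 46 loci fixed by identifier: 13 for light-harvesting proteins, 4 for subunits of photosystem II, 9 for subunits of photosystem I, 5 for electron carriers, 2 for ATP synthase subunits, 4 for the small subunit of Rubisco (RbcS), 1 for Rubisco activase and 8 for enzymes of the Calvin cycle. The rule names them by identifier and uses no measured value, but it was set with earlier results of these data known. Of these loci, 45 were found among the 35851 genes of the expression table, and the RbcS locus LOC_Os12g19394 was not analysed here. All 45 passed the filter on low values (3 or more libraries with 0.5 FPKM or more), as did 23951 genes in all.

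In the light reactions of photosynthesis, light-harvesting proteins hold chlorophyll and pass the energy they absorb to the photosystems. Photosystem II takes electrons from water, mobile carriers such as plastocyanin bring them towards photosystem I, and ATP synthase uses the proton gradient that builds up along the way. The Calvin cycle then fixes carbon dioxide through Rubisco, whose small subunit is encoded in the nucleus and whose large subunit is encoded in the chloroplast. Green stems and stalks carry these complexes as leaves do, in the chlorophyll-bearing cells below their surface.

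RNA came from the abscission zone (AZ), the layer at which the grain comes off, cut as a piece shorter than 2 mm, and from the nonabscission zone (NAZ), which was all of the pedicel that was left. The pedicels were those of W517, a cultivar that shatters easily, and of DZ129, a cultivar that has lost shattering, and both are labelled as wild type (WT) and carry no transgene or treatment. W517AZ, W517NAZ, DZ129AZ and DZ129NAZ each have 3 libraries, all taken on day 10, counted from flowering in the labels and from heading in the methods of the study. Because 1 cultivar stands for each shattering type, the type and every other difference between these cultivars cannot be told apart. What made up 1 replicate is not given in the sources used here, so the p-values measure the spread between these libraries, which may be technical.

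Between 17119083 and 20892377 reads lay on genes in each library. The values are FPKM, the fragments on a gene per kilobase of its length and scaled to the fragments in the library, so that levels can be compared between genes. The members spanned 79 to 85907 reads in a library, and the lowest means over all libraries, 9.15 and 12.5 FPKM, were those of LOC_Os01g52240 and LOC_Os02g52650, both of the light-harvesting class. The libraries of the 4 groups also differed in RNA that is not of photosynthesis. A list of 13 endosperm loci held genes of storage proteins, starch synthesis and transcription factors of the grain. Of these 13 loci, 11 were upregulated and 1 was downregulated in W517AZ vs. DZ129AZ, where 10.6% and 16.4% of all genes tested were. Their summed level was 24860 to 24966 FPKM in W517AZ, 2742 to 3202 FPKM in DZ129AZ, 2702 to 3183 FPKM in W517NAZ and 676 to 762 FPKM in DZ129NAZ, and they took 4.31% to 4.36% of the reads on genes in W517AZ. The prolamin gene LOC_Os07g11920, with the highest AZ fold change of the 13, had 119, 115 and 107 FPKM in W517AZ. It was at 0 in DZ129AZ replicate 2 and in replicates 1 and 3 of DZ129NAZ. LOC_Os01g55690, the most abundant of the 13, had means of 10293 FPKM in W517AZ and 1158 FPKM in DZ129AZ. The 1 downregulated locus, LOC_Os02g15150, had means of 42.0 FPKM in W517AZ and 150 FPKM in DZ129AZ. The 3 loci of secondary wall cellulose synthesis, which mark xylem and fibres, summed to 241 to 249 FPKM in DZ129AZ and 221 to 241 FPKM in W517AZ, but to 14.7 to 18.9 FPKM in DZ129NAZ and 10.3 to 11.8 FPKM in W517NAZ. Of 5 loci of abscission zone regulators, 2 were downregulated from AZ to NAZ in W517, LOC_Os05g38120 at -1.23 ± 0.068 and LOC_Os04g57530 at -2.09 ± 0.36, where 21.3% of all genes were. In DZ129 none of the 5 was lower by a fold change over 2, where 18.2% of all genes were downregulated. At adjusted p below 0.05 in limma alone, 4 of the 5 were lower in the NAZ in W517 and 3 in DZ129. Of all genes, 42.8% and 39.5% were. In both cultivars 1 of the 5, LOC_Os07g03770, went the other way and was higher in the NAZ. This locus, the most abundant of the 5, had means of 74.8 FPKM in W517AZ and 132 FPKM in W517NAZ. Its means in DZ129 were 82.7 FPKM in the AZ and 123 FPKM in the NAZ. The level of 1 of the regulators, LOC_Os04g57530, which the study lists as a transcription factor, was low throughout, at 1.03, 0.944 and 0.848 FPKM in W517AZ and at most 0.353 FPKM in any other library.

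The photosynthesis genes were among the most abundant transcripts of the pedicel and were at their lowest in W517AZ. Of the 45 members, 43 were among the 1000 genes with the highest mean FPKM and 8 among the highest 100. Summed over the members, the level was 11184, 11976 and 12239 FPKM in DZ129AZ and 7023, 6611 and 6620 FPKM in W517AZ. In the NAZ the sum was 19084, 19602 and 18857 FPKM in DZ129 and 19219, 19379 and 19633 FPKM in W517. The AZ sums of the cultivars did not overlap, the NAZ sums did, and every NAZ library was above every AZ library. As a share of all summed FPKM, the members took 1.11% ± 0.0229 (SD, n = 3) in W517AZ, 1.97% ± 0.0852 (SD, n = 3) in DZ129AZ, 3.29% ± 0.0580 (SD, n = 3) in DZ129NAZ and 3.39% ± 0.0271 (SD, n = 3) in W517NAZ. In these bulk samples, fewer green cells and less of this RNA per green cell cannot be told apart. FPKM are relative to all RNA of a library, so more RNA from other tissue cannot be told apart from these either.

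**Figure D1:**
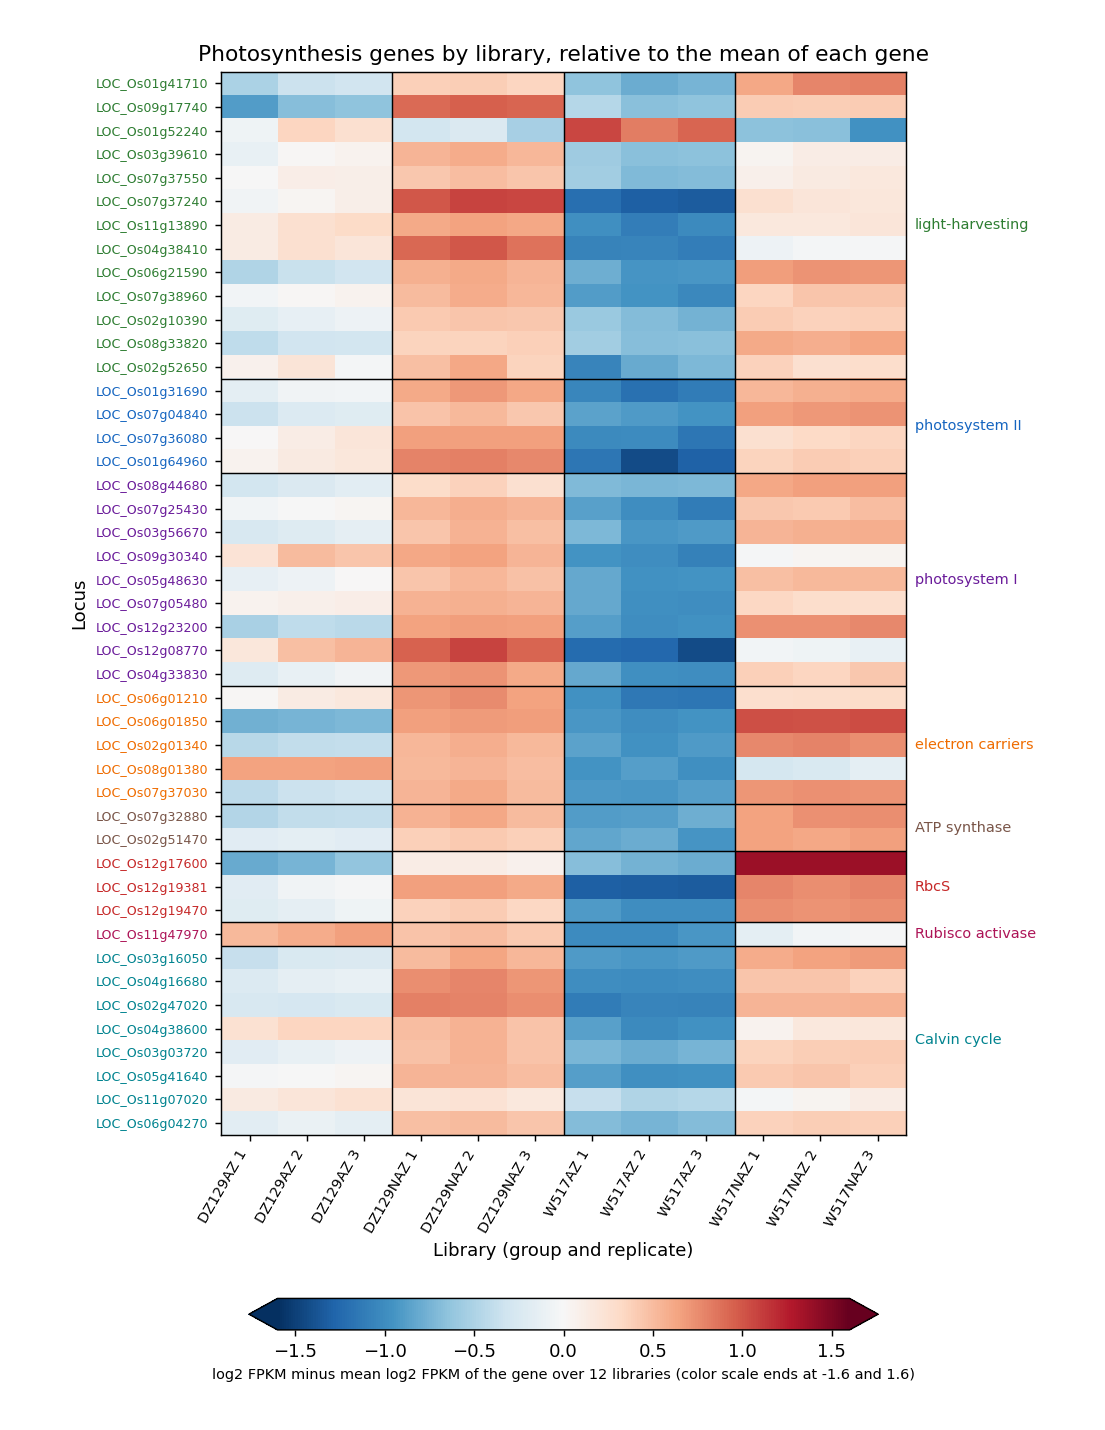
Level of the 45 members (lines, colored by class) in the 12 libraries (columns, by group and replicate), as log2 FPKM minus the mean log2 FPKM of the gene, so that blue is below and red above the mean of that gene. The W517AZ columns are blue in all classes except at LOC_Os01g52240, which was highest there.

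W517AZ had the lowest group mean for 43 of the 45 members. The exceptions were LOC_Os09g17740, lowest in DZ129AZ, and LOC_Os01g52240, lowest in W517NAZ. The highest mean was that of DZ129NAZ for 25 members, W517NAZ for 17, DZ129AZ for 2 and W517AZ for 1. The order of the means was W517AZ, DZ129AZ, W517NAZ, DZ129NAZ from low to high for 18 members, and the same with the NAZ groups exchanged for 17. For another 6 members both W517 groups were below both DZ129 groups with DZ129NAZ highest, and for 2 more, LOC_Os08g01380 and LOC_Os11g47970, with DZ129AZ highest.

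The parts that the classes took of the summed level differed between the 4 groups, in percentage points most for RbcS and the light-harvesting class and relative to its own size most for Rubisco activase. RbcS loci took 22.7% ± 0.222 of the members' summed FPKM in DZ129AZ and 22.9% ± 0.280 in DZ129NAZ, but 19.4% ± 0.388 in W517AZ and 28.1% ± 0.456 in W517NAZ (SD, n = 3 for each). The light-harvesting class took 28.8% ± 0.573 in W517AZ, 24.2% ± 0.206 in DZ129AZ, 26.2% ± 0.245 in DZ129NAZ and 23.4% ± 0.242 in W517NAZ (SD, n = 3 for each). Rubisco activase took 2.33% ± 0.0307 in DZ129AZ and 1.36% ± 0.0790 in W517AZ, against 1.30% ± 0.00769 in DZ129NAZ and 0.891% ± 0.0347 in W517NAZ (SD, n = 3 for each). The Calvin cycle took 12.04% ± 0.219 in W517AZ and 11.57% ± 0.235 in DZ129AZ, and 9.26% ± 0.0781 and 10.4% ± 0.0670 in the NAZ of W517 and DZ129 (SD, n = 3 for each). ATP synthase was between 1.59% and 1.92%, photosystem II between 10.5% and 11.3%, photosystem I between 14.2% and 15.4%, and the electron carriers between 10.7% and 11.3% in the group means. These shares have no test of their own and are given as a description.

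**Figure D2:**
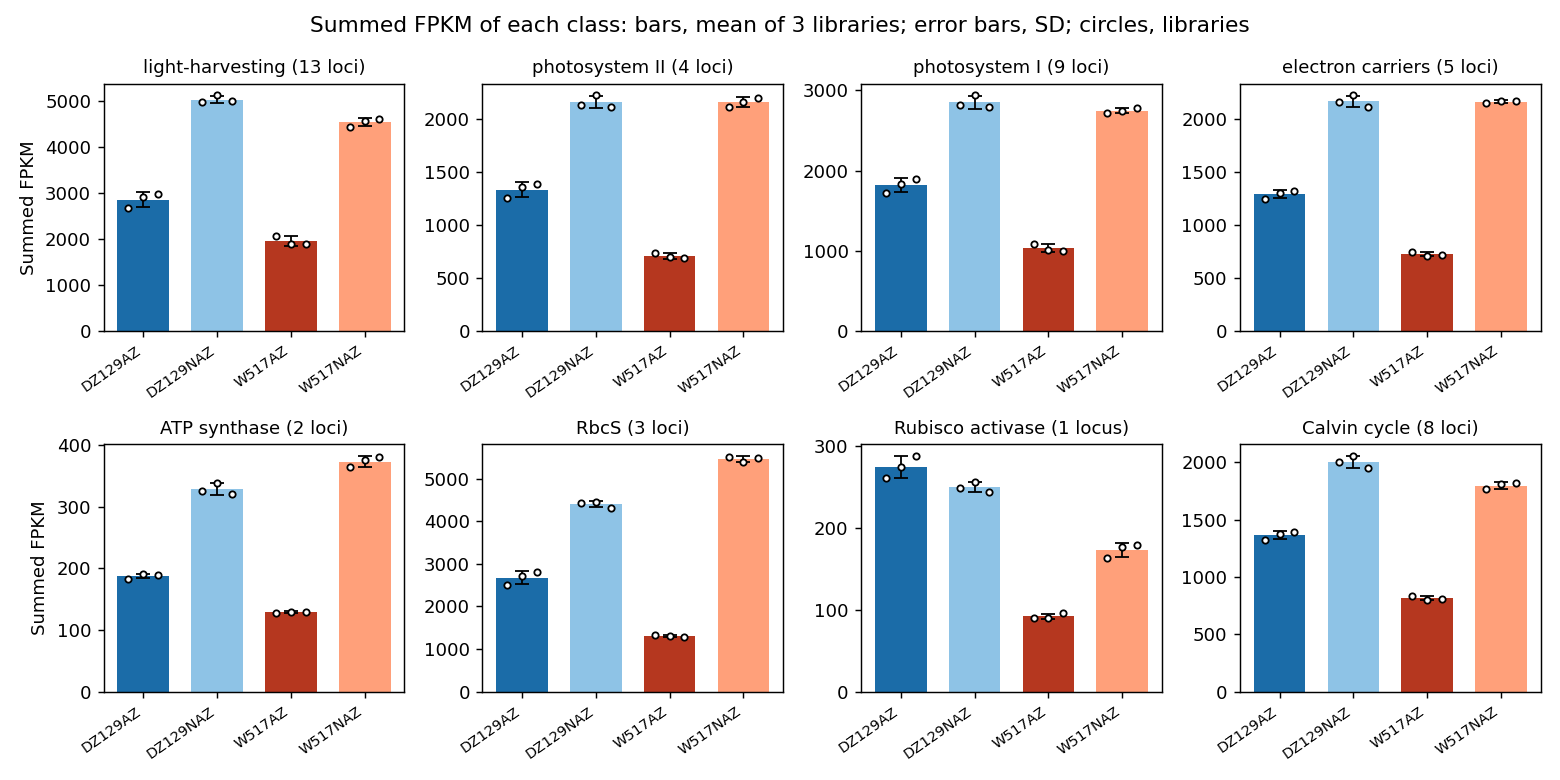
Summed FPKM of the loci of each class in DZ129AZ, DZ129NAZ, W517AZ and W517NAZ (bars, mean of 3 libraries; error bars, SD; circles, single libraries), each panel with its own axis from 0. In every class W517AZ is the lowest group, and in Rubisco activase alone DZ129AZ is the highest.

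Whether the cultivars differ in the AZ, where the grain detaches in W517, was the first comparison. A gene was taken as a differentially expressed gene (DEG) when its adjusted p in limma was below 0.05 and its fold change above 2, with the group named second as the base. In W517AZ vs. DZ129AZ, 14 of the 45 members were downregulated and 0 were upregulated, while 16.4% of all genes tested were downregulated and 10.6% upregulated, 27.1% in all. The members' median log2 fold change was -0.81, against -0.07 over all genes tested. They ranged from -1.71 at LOC_Os12g08770 to 0.76 at LOC_Os01g52240, and 43 of them were below 0. Without the limit on fold change, 42 members were lower and 1 was higher at adjusted p below 0.05, where 39.9% and 29.9% of all genes were. The W517AZ libraries lay wholly below the DZ129AZ libraries for 42 members and above them for 1, as for 41.6% and 31.9% of all genes. The adjusted p of the 14 DEGs ran from 3.66e-13 to 4.69e-10. When the library totals were formed without the reads of the endosperm loci, a choice made after seeing the data, 12 members were downregulated and the median of all members was -0.75. That setting left out the reads of 13 loci only, not all RNA that grain tissue may have brought in.

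The DEGs of this comparison came from 7 of the 8 classes. They were 3 of 13 light-harvesting loci, 3 of 4 of photosystem II, 3 of 9 of photosystem I, 2 of 5 electron carriers, 1 of the 3 RbcS loci, the Rubisco activase locus and 1 of 8 of the Calvin cycle. Neither ATP synthase locus was a DEG. The summed FPKM of W517AZ relative to DZ129AZ was 0.335 for Rubisco activase, 0.490 for RbcS, 0.530 for photosystem II, 0.560 for the electron carriers, 0.567 for photosystem I, 0.596 for the Calvin cycle, 0.681 for the light-harvesting class and 0.687 for ATP synthase.

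In the NAZ the cultivars differed less. In W517NAZ vs. DZ129NAZ, 1 member was upregulated, the RbcS locus LOC_Os12g17600, and 1 was downregulated, the photosystem I locus LOC_Os12g08770, while 10.0% and 17.7% of all genes tested were, 27.7% in all. The members' median log2 fold change was -0.11, against -0.07 over all genes. With median-ratio scaling of the libraries LOC_Os12g08770 was no longer a DEG, at -0.98. At adjusted p below 0.05 alone, 24 members were lower and 13 higher, against 39.7% and 31.1% of all genes, and 27 members were lower and 14 higher without overlap of the libraries, as were 41.1% and 32.7% of all genes. The summed FPKM of W517NAZ relative to DZ129NAZ was between 0.693 for Rubisco activase and 1.24 for RbcS, and the libraries of the cultivars overlapped for photosystem II and the electron carriers.

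**Figure D3:**
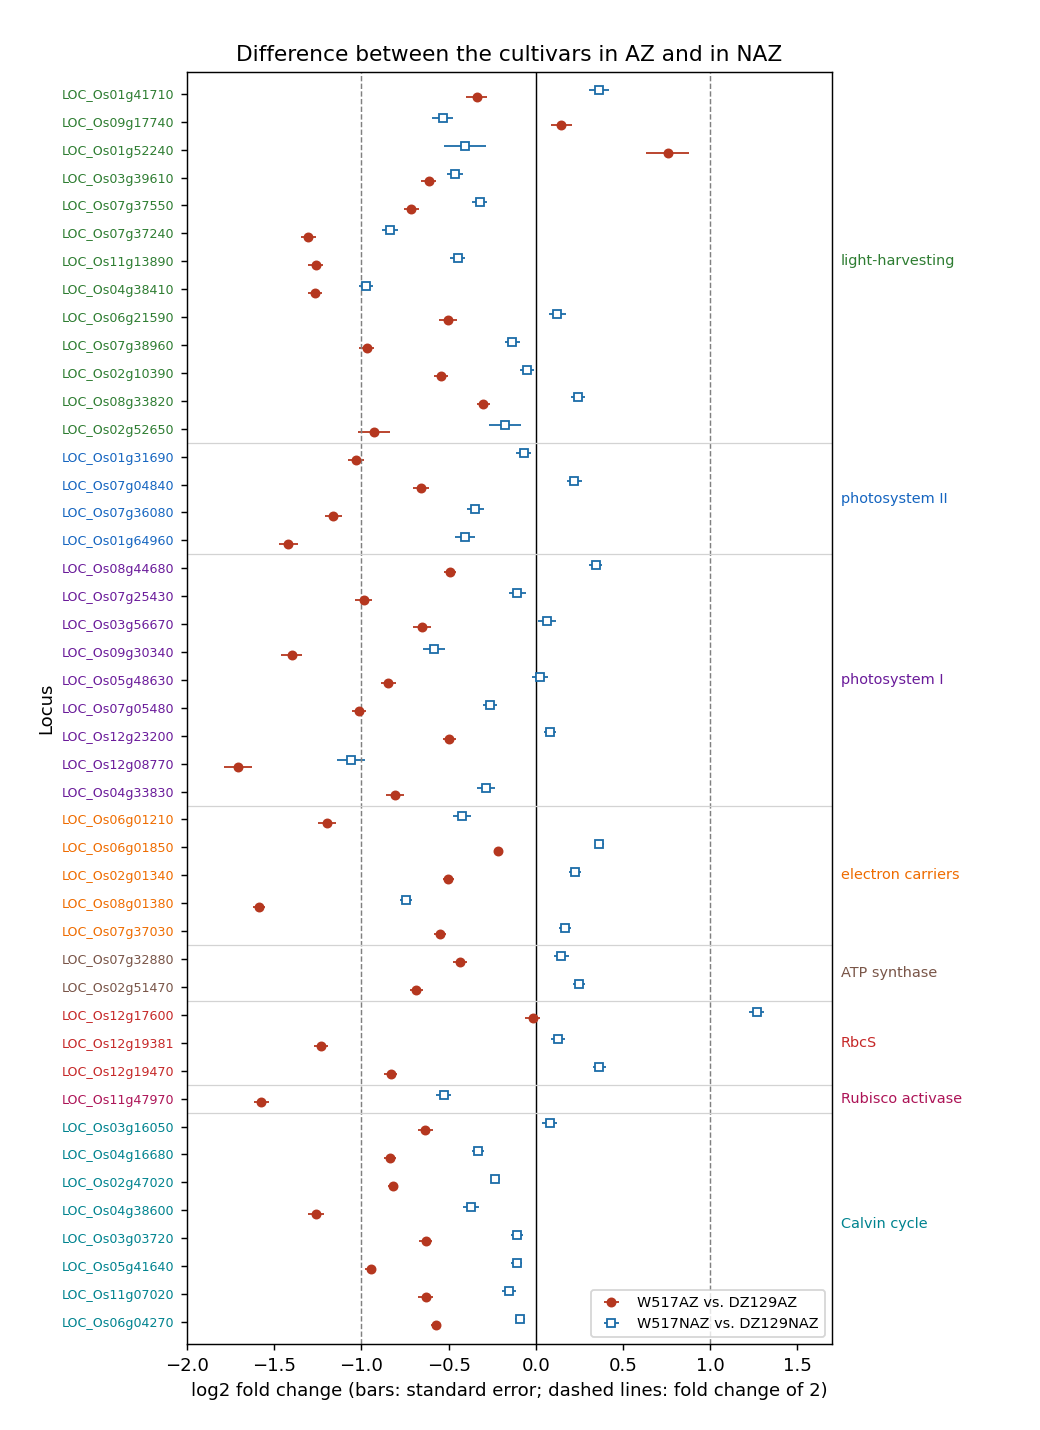
Log2 fold change of each member between the cultivars (points, with bars of 1 standard error from limma on 12 libraries), in the AZ (filled circles) and in the NAZ (open squares), with dashed lines at a fold change of 2. In the AZ 43 of 45 circles lie below 0 and 14 beyond the lower dashed line, while the squares scatter around a median of -0.11.

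Between the tissues of W517, most members were higher in the NAZ. In W517NAZ vs. W517AZ, 38 of 45 were upregulated and 1, LOC_Os01g52240, was downregulated, where 12.4% of all genes tested were upregulated and 21.3% downregulated, 33.7% in all. The NAZ libraries lay wholly above the AZ libraries for 44 members and below for 1, as for 29.6% and 43.4% of all genes. The median log2 fold change was 1.37, against -0.13 over all genes. The upregulated members were 9 of 13 light-harvesting loci, all 4 of photosystem II, all 9 of photosystem I, 4 of 5 electron carriers, both ATP synthase loci, the 3 RbcS loci and 7 of 8 of the Calvin cycle. Rubisco activase was not a DEG, at 0.91 ± 0.043 (log2 fold change ± standard error). With quantile normalization 31 members were upregulated, without the endosperm reads 36, and with median-ratio scaling 40, among them Rubisco activase at 1.03 and LOC_Os09g17740 at 1.11.

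In DZ129NAZ vs. DZ129AZ, 5 of 45 members were upregulated and 0 were downregulated, where 9.84% and 18.2% of all genes tested were, 28.0% in all. They were the light-harvesting loci LOC_Os09g17740 (1.67) and LOC_Os07g37240 (1.02), the electron carrier locus LOC_Os06g01850 (1.41), the photosystem I locus LOC_Os12g23200 (1.11) and the Calvin cycle locus LOC_Os02g47020 (1.04), with the log2 fold change in parentheses. The median was 0.61, against -0.09 over all genes, and 41 members were higher at adjusted p below 0.05 alone, where 28.1% of all genes were higher and 39.5% lower. The libraries of the tissues did not overlap for 41 members with the NAZ above and 3 with it below, as for 30.8% and 42.5% of all genes. Median-ratio scaling placed 10 members above the threshold of fold change. Without DZ129AZ replicate 1, LOC_Os07g37240 was no longer a DEG, at 0.98.

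The interaction asks whether the tissue difference itself differed between the cultivars. It is the NAZ minus AZ difference of W517 less that of DZ129 on the log2 scale, and it was called at adjusted p below 0.05 without a limit on its size. It was called as higher for 42 of 45 members and as lower for 2, against 22.0% and 21.4% of all genes tested. The median was 0.72, against -0.02 over all genes, and 6 members were beyond 1 in size. The members called as lower were the light-harvesting loci LOC_Os09g17740 and LOC_Os01g52240. LOC_Os03g39610 of the same class was not called, at 0.15 ± 0.062 and an adjusted p of 0.0642 in limma. The interaction uses the same 12 libraries as the 4 comparisons above and is not separate evidence.

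**Figure D4:**
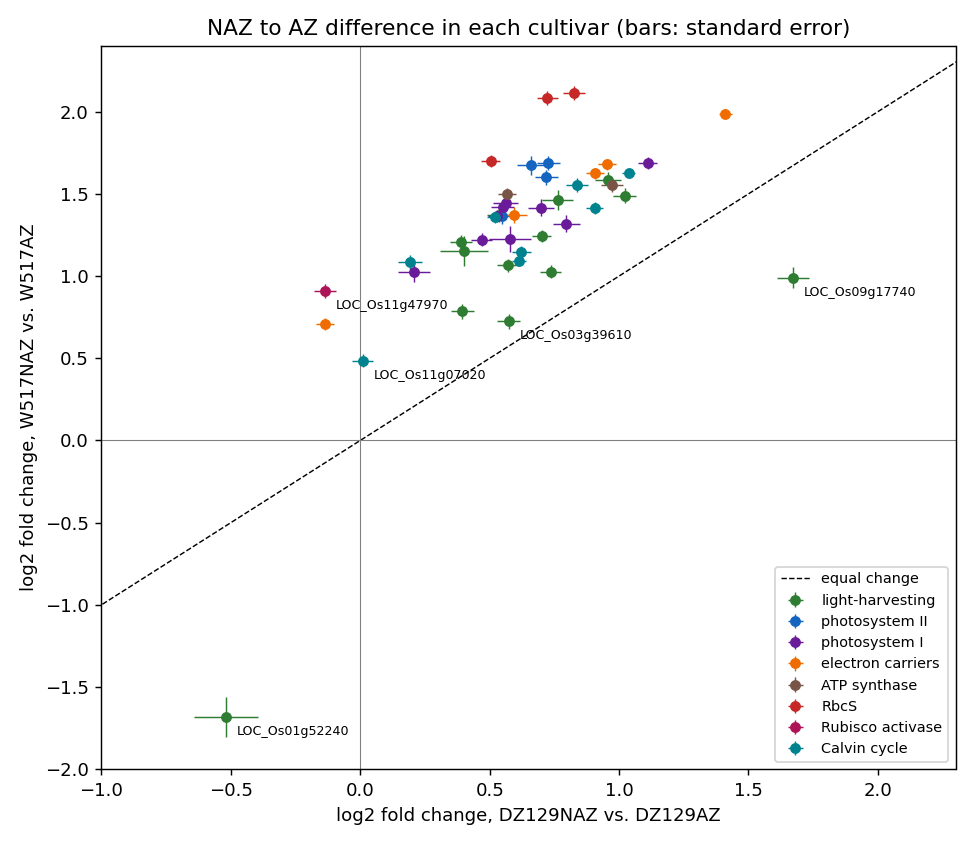
Log2 fold change between NAZ and AZ of each member in DZ129 (horizontal) and in W517 (vertical), with bars of 1 standard error from limma and a dashed line where both cultivars would change equally. All points lie above the line except LOC_Os09g17740 and LOC_Os01g52240, and the 3 RbcS loci lie farthest above it.

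The light-harvesting class, whose 13 proteins form the antennae of the photosystems, summed to 1948 ± 107 FPKM in W517AZ, 2859 ± 155 in DZ129AZ, 4539 ± 87.9 in W517NAZ and 5035 ± 80.9 in DZ129NAZ (SD, n = 3). These loci belong to gene families with closely related copies. Reads that match several copies can be split between them or left uncounted, so single loci are uncertain, and their sum may be too. LOC_Os01g41710, the most abundant of the class, had 353, 397 and 405 FPKM in DZ129AZ, 656, 663 and 638 in DZ129NAZ, 323, 291 and 299.5 in W517AZ, and 774, 865 and 882 in W517NAZ. It was highest in W517NAZ and lowest in W517AZ, with no overlap between groups that were compared. Its log2 fold change was -0.34 ± 0.06 between the AZs and 0.36 ± 0.06 between the NAZs, neither beyond a fold change of 2, and 1.46 ± 0.06 between the tissues of W517.

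LOC_Os07g37240 was the light-harvesting locus with the lowest value in W517AZ relative to DZ129AZ. It had 249.5, 267 and 278 FPKM in DZ129AZ, 519.7, 548 and 544 in DZ129NAZ, 113, 106 and 103 in W517AZ, and 312, 296 and 294 in W517NAZ. Both W517 groups were below the DZ129 group of the same tissue in every library. The fold change was -1.30 ± 0.045 in the AZ and -0.84 ± 0.045 in the NAZ on the log2 scale. LOC_Os11g13890 and LOC_Os04g38410, listed by the study as a chlorophyll A-B binding protein, were the other DEGs of the class in the AZ, at -1.26 ± 0.043 and -1.27 ± 0.04. The largest interaction of the class was that of LOC_Os07g38960, which had 277, 291 and 299 FPKM in DZ129AZ, 408, 432 and 416 in DZ129NAZ, 155, 148 and 140.0 in W517AZ, and 364, 389.7 and 391 in W517NAZ. The W517 libraries lay below those of DZ129 in both tissues, by -0.13 ± 0.044 in the NAZ and -0.97 ± 0.044 in the AZ, the latter just short of a fold change of 2, and without W517AZ replicate 1 it was a DEG at -1.01.

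LOC_Os09g17740 and LOC_Os01g52240 went against the rest of the light-harvesting class. LOC_Os09g17740 had 239, 277 and 283 FPKM in DZ129AZ, 831, 861 and 848 in DZ129NAZ, 324, 278 and 283 in W517AZ, and 586, 582 and 586 in W517NAZ. Its AZ libraries overlapped between the cultivars, and DZ129NAZ was above every other group. The tissue difference was 1.67 ± 0.062 in DZ129 and 0.99 ± 0.062 in W517, and the interaction was -0.68 ± 0.088. LOC_Os01g52240, a low locus, had 7.85, 10.4 and 9.86 FPKM in DZ129AZ, 6.75, 7.02 and 5.71 in DZ129NAZ, 17.3, 14.5 and 15.7 in W517AZ, and 5.25, 5.20 and 4.20 in W517NAZ. It was highest in W517AZ, where every library was above all others, and its NAZ libraries were the lowest in both cultivars. It was downregulated in W517NAZ vs. W517AZ at -1.68 ± 0.12, with an interaction of -1.16 ± 0.17. The other 8 loci of the class had log2 fold changes of -1.27 to -0.30 between the AZs, -0.98 to 0.24 between the NAZs, 0.72 to 1.59 between the tissues of W517 and 0.39 to 0.96 between those of DZ129.

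Photosystem II carries out the oxidation of water, and its 4 listed loci summed to 707 ± 28 FPKM in W517AZ, 1333 ± 67.8 in DZ129AZ, 2157 ± 45.6 in W517NAZ and 2156 ± 56.8 in DZ129NAZ (SD, n = 3). The NAZ sums of the cultivars overlapped. These are not all nuclear loci of the photosystem. LOC_Os07g05360 (PsbR in the list of further thylakoid loci) had means of 2226 FPKM in W517NAZ and 1393 FPKM in DZ129NAZ. LOC_Os04g59440 (PsbS2 there) had 21.7 and 74.1 FPKM. LOC_Os07g04840, the most abundant of the 4, had 491, 539 and 547 FPKM in DZ129AZ, 857, 896 and 842 in DZ129NAZ, 344, 333 and 322 in W517AZ, and 988, 1007 and 1031 in W517NAZ. It was the only locus of the class that was not a DEG between the AZs, at -0.66 ± 0.044, and the only one above 0 between the NAZs, at 0.22 ± 0.044, where quantile normalization gave -0.06. LOC_Os01g64960, which the study lists as PSBS, the protein that lets the antenna release excess light energy as heat, had 110.2, 117 and 119.8 FPKM in DZ129AZ, 183, 184 and 180.3 in DZ129NAZ, 47.6, 39.3 and 43.0 in W517AZ, and 136, 140.3 and 137 in W517NAZ. The highest W517AZ library was at 47.6 FPKM and the lowest of the others at 110.2 FPKM. It had the lowest AZ fold change of the class, -1.42 ± 0.055, and an interaction of 1.01 ± 0.078. LOC_Os07g36080, listed as oxygen evolving enhancer protein 3 (PSBQ), which steadies the oxygen-evolving side of photosystem II, had 172, 186 and 196 FPKM in DZ129AZ, 270.2, 269.9 and 269.7 in DZ129NAZ, 85.1, 85.1 and 77.2 in W517AZ, and 205, 213 and 218 in W517NAZ. It was downregulated in the AZ at -1.16 ± 0.048 and stood at -0.35 ± 0.048 in the NAZ. The remaining locus, LOC_Os01g31690, was a DEG in the AZ at -1.03 ± 0.044, close to the threshold, and lost the call with median-ratio scaling, without the endosperm reads and without W517AZ replicate 2, at -0.98, -0.97 and -0.99.

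Photosystem I passes electrons on to ferredoxin. Its 9 loci were all upregulated in W517NAZ vs. W517AZ, at 1.03 to 1.69, and 1 of them, LOC_Os12g23200, in DZ129NAZ vs. DZ129AZ. LOC_Os08g44680, the most abundant, had 285, 297 and 310.3 FPKM in DZ129AZ, 425, 448 and 414 in DZ129NAZ, 213, 210.3 and 211 in W517AZ, and 534, 551 and 548 in W517NAZ. The groups did not overlap in any comparison, with W517AZ lowest and W517NAZ highest. The fold change between the cultivars was -0.49 ± 0.036 in the AZ and 0.34 ± 0.036 in the NAZ, opposite in sign. LOC_Os12g08770 had the lowest AZ fold change of all members, -1.71 ± 0.081. It had 124, 152 and 160.0 FPKM in DZ129AZ, 210.0, 231 and 208 in DZ129NAZ, 46.5, 45.9 and 40.4 in W517AZ, and 106, 104 and 101 in W517NAZ. Both W517 groups were below both DZ129 groups, and the locus was downregulated in W517 in the NAZ too, at -1.06 ± 0.081.

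Of the other photosystem I loci, LOC_Os07g25430 had the largest interaction, 0.88 ± 0.07. It had 261, 268 and 275 FPKM in DZ129AZ, 391, 404 and 392 in DZ129NAZ, 147, 135 and 124 in W517AZ, and 362, 360.5 and 379.7 in W517NAZ. Its AZ fold change of -0.99 ± 0.049 was just short of a fold change of 2, and it was a DEG without DZ129AZ replicate 1 and without W517AZ replicate 1, at -1.01 and -1.05. LOC_Os04g33830 had the smallest interaction, 0.52 ± 0.074, with 161, 170.2 and 178 FPKM in DZ129AZ, 299, 305 and 281 in DZ129NAZ, 105, 93.6 and 92.6 in W517AZ, and 241, 235 and 249.8 in W517NAZ. All its NAZ libraries were above all its AZ libraries. LOC_Os09g30340, listed as PSAG, a subunit at the edge of photosystem I where antenna proteins attach, was downregulated in W517AZ vs. DZ129AZ at -1.40 ± 0.062 and differed by only 0.21 ± 0.062 between the tissues of DZ129. LOC_Os07g05480 was the third DEG of the class in the AZ, at -1.02 ± 0.041, and lost the call with median-ratio scaling, quantile normalization, without the endosperm reads, and without W517AZ replicate 2 or replicate 3. The 5 loci without values in every library here had log2 fold changes of -1.40 to -0.50 between the AZs and -0.58 to 0.082 between the NAZs.

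The electron carriers link the photosystems and deliver electrons to the enzymes that use them. LOC_Os06g01210, listed as plastocyanin, the copper protein that supplies photosystem I, had 382, 413 and 421 FPKM in DZ129AZ, 616, 634 and 587 in DZ129NAZ, 192, 171 and 168 in W517AZ, and 453, 458 and 459 in W517NAZ. W517AZ was lowest, with no overlap with another group, and the locus was downregulated in the AZ at -1.20 ± 0.051, against -0.42 ± 0.051 in the NAZ. LOC_Os06g01850 had the largest tissue difference of the class in both cultivars. It had 177, 179.6 and 183 FPKM in DZ129AZ, 474, 482 and 479 in DZ129NAZ, 158, 152 and 156 in W517AZ, and 617, 612 and 618 in W517NAZ. The tissue difference was 1.99 ± 0.026 in W517 and 1.41 ± 0.026 in DZ129, while the AZs differed by only -0.21 ± 0.026.

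LOC_Os08g01380, another electron carrier locus, was the exception of its class. It had 268, 268 and 271 FPKM in DZ129AZ, 245, 249 and 242 in DZ129NAZ, 88.3, 93.0 and 87.1 in W517AZ, and 141, 144 and 153 in W517NAZ. Both DZ129 groups were above both W517 groups, and in DZ129 the AZ was above the NAZ in every library. Its fold change between the AZs was -1.59 ± 0.035, between the NAZs -0.74 ± 0.035, and between the tissues of DZ129 -0.13 ± 0.035. The remaining 2 loci, LOC_Os02g01340 and LOC_Os07g37030, were at -0.50 and -0.55 between the AZs and at 1.68 and 1.63 between the tissues of W517. Summed over the class, the NAZ was at 2162 ± 53.5 FPKM in DZ129 and 2161 ± 10.7 FPKM in W517, with overlapping libraries, and the AZ at 1290 ± 38.5 and 722 ± 17.3 FPKM without overlap (SD, n = 3).

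The ATP synthase uses the proton gradient to make ATP, and its loci had the class sum of W517AZ nearest to that of DZ129AZ. LOC_Os07g32880 had 100, 106 and 106 FPKM in DZ129AZ, 203, 213 and 197 in DZ129NAZ, 74.7, 75.3 and 80.9 in W517AZ, and 216, 229.9 and 233 in W517NAZ. LOC_Os02g51470 had 83.3, 84.7 and 82.9 FPKM in DZ129AZ, 122, 126 and 123 in DZ129NAZ, 52.8, 54.4 and 48.9 in W517AZ, and 148, 145 and 148 in W517NAZ. Both were lowest in W517AZ and highest in W517NAZ in every library. Their log2 fold changes between the AZs were -0.43 ± 0.043 and -0.68 ± 0.036, neither past a fold change of 2, and between the tissues of W517 they were 1.55 ± 0.043 and 1.5 ± 0.036.

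RbcS showed the largest interactions of all classes. The small subunit completes the Rubisco enzyme together with the chloroplast-made large subunit, and the RbcS loci of rice chromosome 12 are near-identical copies. Their reads can be divided between loci, including the locus not analysed here, or left uncounted. The values of single loci are therefore uncertain, and their sum may be too. Summed over the 3 loci, the level was 1310 ± 20.0 FPKM in W517AZ, 2676 ± 149.8 in DZ129AZ, 5462 ± 68.0 in W517NAZ and 4400 ± 75.5 in DZ129NAZ (SD, n = 3). The sum was 4.17 times as high in the NAZ as in the AZ in W517, and 1.64 times in DZ129.

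LOC_Os12g19381 was the most abundant of all members and ranked 11 among all genes. It had 2078, 2268 and 2319 FPKM in DZ129AZ, 3698, 3701 and 3596 in DZ129NAZ, 952, 943 and 939.8 in W517AZ, and 4043, 3931 and 4033 in W517NAZ. The W517AZ libraries were below all others, and those of W517NAZ above all others. It was downregulated between the AZs at -1.23 ± 0.042, stood at 0.13 ± 0.042 between the NAZs, and had the largest interaction of all members, 1.36 ± 0.059. LOC_Os12g17600 had 244, 255 and 276 FPKM in DZ129AZ, 464, 464 and 447 in DZ129NAZ, 267, 252 and 247 in W517AZ, and 1105, 1101 and 1104 in W517NAZ. Its AZ libraries overlapped between the cultivars, at -0.017 ± 0.043 and an adjusted p of 0.742 in limma, a difference whose sign changed with the scaling. In the NAZ it was the only upregulated member, at 1.27 ± 0.043. LOC_Os12g19470 had 187, 194 and 204 FPKM in DZ129AZ, 275, 284 and 271 in DZ129NAZ, 114, 107 and 107 in W517AZ, and 359, 352 and 358 in W517NAZ. It differed by -0.83 ± 0.037 between the AZs and 0.36 ± 0.037 between the NAZs, with an interaction of 1.20 ± 0.052.

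The shares of all 3 loci in the RbcS level differed between the cultivars in both tissues, that of LOC_Os12g19470 by the fewest percentage points. LOC_Os12g17600 took 9.66% ± 0.248 of the RbcS FPKM in DZ129AZ and 10.4% ± 0.0493 in DZ129NAZ, but 19.5% ± 0.465 in W517AZ and 20.2% ± 0.213 in W517NAZ (SD, n = 3 for each). LOC_Os12g19381 took 83.0% ± 0.374 and 83.3% ± 0.104 in the AZ and NAZ of DZ129, and 72.1% ± 0.639 and 73.3% ± 0.222 in those of W517 (SD, n = 3 for each). The libraries of the cultivars did not overlap in either share. Reads of both cultivars were aligned to 1 reference genome, and these copies are near-identical. Whether reads were assigned to the copies alike in both cultivars was not tested. LOC_Os12g19470 took 7.30% ± 0.160 in DZ129AZ and 8.37% ± 0.185 in W517AZ (SD, n = 3 for each). In the NAZ it took 6.29% ± 0.0898 in DZ129 and 6.52% ± 0.00832 in W517 (SD, n = 3 for each). The libraries of the cultivars did not overlap in this share in either tissue, and every AZ library was above every NAZ library.

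Rubisco activase, which frees Rubisco of inhibitory sugar phosphates, was encoded by 1 member, LOC_Os11g47970. It had 261, 274 and 287 FPKM in DZ129AZ, 249, 256 and 244 in DZ129NAZ, 90.2, 90.4 and 95.5 in W517AZ, and 164, 177 and 179 in W517NAZ. Unlike most members it was highest in DZ129AZ, and both W517 groups were below both DZ129 groups. It was downregulated in the AZ at -1.57 ± 0.043 and stood at -0.53 ± 0.043 in the NAZ. Between the tissues it differed by 0.91 ± 0.043 in W517 and -0.14 ± 0.043 in DZ129, with an interaction of 1.04 ± 0.061.

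The 8 enzymes of the Calvin cycle summed to 813 ± 17.5 FPKM in W517AZ, 1365 ± 36.3 in DZ129AZ, 1797 ± 28.6 in W517NAZ and 2001 ± 50.2 in DZ129NAZ (SD, n = 3). LOC_Os11g07020, the most abundant, had 289, 299.8 and 309 FPKM in DZ129AZ, 302, 307 and 294 in DZ129NAZ, 202, 187 and 191 in W517AZ, and 257, 271 and 284 in W517NAZ. It showed the smallest contrast between the tissues, 0.49 ± 0.042 in W517 and 0.0091 ± 0.042 in DZ129, where its libraries overlapped. LOC_Os06g04270 had 198, 207 and 199.8 FPKM in DZ129AZ, 309, 314 and 301 in DZ129NAZ, 137, 133 and 137 in W517AZ, and 287, 291 and 288 in W517NAZ. Its AZ fold change of -0.57 ± 0.028 was the smallest deficit of the class. LOC_Os04g38600, listed as glyceraldehyde-3-phosphate dehydrogenase (GAPA2), the enzyme of the reducing step of the cycle, had 146, 156 and 156 FPKM in DZ129AZ, 174, 181 and 169 in DZ129NAZ, 67.4, 60.9 and 62.9 in W517AZ, and 128, 138 and 139.5 in W517NAZ. It was the only Calvin cycle DEG between the AZs, at -1.26 ± 0.047, and both W517 groups were below both DZ129 groups. The other 5 loci ranged from -0.95 to -0.63 between the AZs and from 1.15 to 1.63 between the tissues of W517, and 1 of them, LOC_Os02g47020, was also upregulated in DZ129NAZ vs. DZ129AZ.

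Other loci of the chloroplast pathways were read from fixed lists in the same fit. Of 12 loci of chlorophyll synthesis, 2 were downregulated in W517AZ vs. DZ129AZ, a share near the 16.4% of all genes, LOC_Os03g20700 (listed as a magnesium-chelatase, which puts magnesium into the chlorophyll precursor) at -1.10 ± 0.05 and LOC_Os03g22780 (listed as DVR) at -1.06 ± 0.11. LOC_Os03g20700 had 36.1, 38.0 and 39.9 FPKM in DZ129AZ, 51.2, 50.7 and 51.7 in DZ129NAZ, 16.9, 18 and 18.1 in W517AZ, and 39.3, 35.9 and 35.4 in W517NAZ. The list's median in that comparison was -0.71. At adjusted p below 0.05 alone, 9 of its 12 loci were lower and 0 higher, where 39.9% and 29.9% of all genes were. From AZ to NAZ, 10 of the 12 were upregulated in W517 and 1 in DZ129, where 12.4% and 9.84% of all genes were. In W517NAZ vs. DZ129NAZ, LOC_Os04g58200 was upregulated at 1.64 ± 0.055. It was the only DEG of the 12 there, where 10.0% of all genes were upregulated and 17.7% downregulated. Of 12 further thylakoid and Calvin cycle loci, again 2 were downregulated in W517AZ vs. DZ129AZ, near the share of all genes. They were LOC_Os04g31040 (listed as violaxanthin de-epoxidase, which makes zeaxanthin in strong light) at -1.29 ± 0.057 and LOC_Os04g59440 at -1.20 ± 0.05. Without the limit on fold change, 10 of the 12 were lower and 0 higher, where 39.9% and 29.9% of all genes were. The median of the 12 was -0.54, against -0.07 over all genes. In W517NAZ vs. DZ129NAZ 1 of the 12 was downregulated and 1 upregulated, where 17.7% and 10.0% of all genes were. These were LOC_Os04g59440 at -1.77 ± 0.05 and LOC_Os02g05830 (RbcS1 in this list) at 1.16 ± 0.25. LOC_Os02g05830 was low in the NAZ, at 2.19, 0.776 and 1.65 FPKM in W517 and 0.599, 0.561 and 0.578 in DZ129. From AZ to NAZ, 6 of the 12 were upregulated in W517 and 2 in DZ129, where 12.4% and 9.84% of all genes were. Only LOC_Os02g05830 was downregulated, at -3.55 in W517 and -4.85 in DZ129, where 21.3% and 18.2% of all genes were.

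Photorespiration, which recovers the carbon lost when Rubisco takes oxygen, had 1 of 10 loci downregulated in W517AZ vs. DZ129AZ. This was LOC_Os10g37180 at -1.02 ± 0.04, and the share was below the 16.4% of all genes. Without the limit on fold change, 9 of the 10 were lower and 0 higher, where 39.9% and 29.9% of all genes were. The list's median log2 fold change there was -0.57, against -0.07 over all genes. Between the tissues, 9 of its 10 loci were upregulated from AZ to NAZ in W517 and 5 in DZ129, where 12.4% and 9.84% of all genes were, and the interaction was called as higher for all 10, against 22.0% of all genes. None of the 10 passed the DEG threshold in W517NAZ vs. DZ129NAZ, where 27.7% of all genes did, and 6 were higher and 2 lower at adjusted p below 0.05 in limma. Of 3 loci listed as regulators of chloroplast genes, 1 was downregulated in W517 in both tissues, where 16.4% (AZ) and 17.7% (NAZ) of all genes were. This was LOC_Os06g24070, at -1.42 ± 0.086 in the AZ and -2.26 ± 0.086 in the NAZ. LOC_Os06g24070 had 5.71, 5.13 and 5.15 FPKM in DZ129AZ, 14.7, 15.2 and 14.9 in DZ129NAZ, 2.01, 1.81 and 1.96 in W517AZ, and 3.06, 2.83 and 3.23 in W517NAZ. Unlike most members, it had an interaction below 0, -0.84 ± 0.12. The interaction was called as lower for 2 of the 3 loci, LOC_Os06g24070 among them, where 21.4% of all genes were. The other 2 loci of this list were not DEGs in any of the 4 comparisons. In W517AZ vs. DZ129AZ both were higher at adjusted p below 0.05 in limma, LOC_Os02g12790 at 0.82 ± 0.09 and LOC_Os01g13740 at 0.26 ± 0.071.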

How the data were processed

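RNA-seq libraries made with a stranded mRNA kit were sequenced by the authors. Reads trimmed by Trimmomatic were aligned by HISAT2 to the MSU-RGAP 7.0 genome. The study names Cufflinks for the FPKM and HTSeq for read counts, and no count table was used here. For 100% of genes a search over lengths of 150 to 20000 bp found one at which the deposited FPKM corresponded to whole reads. The tolerance was 0.02 reads, and wider for the highest read numbers. Whole numbers are those of read counts, so the step that formed the deposited FPKM is not certain. The recovered reads gave the depth, with a median of 19382442.5 per library, and 1 alternative test. The libraries differ by no batch in the labels.

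Log2(FPKM + 0.1) was fitted by limma-trend (limma 3.58.1, R 4.3.3) with all 4 groups of 3 libraries together and no replicate block, for genes that reached 0.5 FPKM in 3 or more libraries. Fold changes are on this log2 scale and understate those of low genes. Benjamini-Hochberg adjustment of p-values was over all 23951 genes tested. The fit was tested on simulated data. Sums and figures used Python 3.11.15, numpy 2.4.6, pandas 2.3.3 and matplotlib 3.10.9.

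Values in every library are given, per class, for the most abundant member, the highest and lowest fold change between the AZs, the highest and lowest interaction, and members called against their class. The members and lists were chosen with earlier results of these data known. The table pairs no names with loci, so classes and lists rest on the given rule and general knowledge of rice loci, and names on the study's description of 6 members. The light-harvesting loci of both photosystems were taken as 1 class, and RbcS and activase as 2. Promoters and proteins were not analysed here. Results were recomputed with quantile normalization, with median-ratio scaling, with pseudocounts of 0.5 and 1, with a 1 FPKM filter or none, with a replicate block, with separate fits, with voom on the recovered reads, with each library left out and, chosen after seeing the data, with totals without the endosperm reads.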

Additional observations from a re-analysis of the deposited data

Results flagged for a closer look

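For 44 of the 45 members, the difference between NAZ and AZ was not the same in the cultivars by the interaction test of limma, at adjusted p from 3.55e-09 to 0.00109. The values below are the log2 difference in W517 less that in DZ129. In 43.4% of all genes tested this interaction was called, so the count is read against that share.

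In the light-harvesting class, the tissue difference was larger in W517 by 0.70 at LOC_Os01g41710, 0.39 at LOC_Os07g37550, 0.47 at LOC_Os07g37240, 0.82 at LOC_Os11g13890 and 0.29 at LOC_Os04g38410. It was also larger by 0.63 at LOC_Os06g21590, 0.84 at LOC_Os07g38960, 0.50 at LOC_Os02g10390, 0.54 at LOC_Os08g33820 and 0.75 at LOC_Os02g52650. The interaction was below 0 at LOC_Os09g17740 (-0.68) and LOC_Os01g52240 (-1.16).

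The photosystem II loci differed by 0.96 (LOC_Os01g31690), 0.88 (LOC_Os07g04840), 0.81 (LOC_Os07g36080) and 1.01 (LOC_Os01g64960). Those of photosystem I differed by 0.84 at LOC_Os08g44680, 0.88 at LOC_Os07g25430, 0.72 at LOC_Os03g56670, 0.82 at LOC_Os09g30340, 0.87 at LOC_Os05g48630, 0.75 at LOC_Os07g05480, 0.58 at LOC_Os12g23200, 0.65 at LOC_Os12g08770 and 0.52 at LOC_Os04g33830. Electron carriers differed by 0.78 at LOC_Os06g01210, 0.58 at LOC_Os06g01850, 0.73 at LOC_Os02g01340, 0.84 at LOC_Os08g01380 and 0.72 at LOC_Os07g37030, and the ATP synthase loci by 0.58 at LOC_Os07g32880 and 0.93 at LOC_Os02g51470.

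The values were highest for the small subunit of Rubisco, at 1.28, 1.36 and 1.20 for the RbcS loci LOC_Os12g17600, LOC_Os12g19381 and LOC_Os12g19470, and at 1.04 for the Rubisco activase locus LOC_Os11g47970. Calvin cycle loci differed by 0.71 at LOC_Os03g16050, 0.51 at LOC_Os04g16680, 0.59 at LOC_Os02g47020, 0.89 at LOC_Os04g38600, 0.52 at LOC_Os03g03720, 0.84 at LOC_Os05g41640, 0.48 at LOC_Os11g07020 and 0.48 at LOC_Os06g04270. The 13 endosperm loci were all called with an interaction below 0, and 44 members were called when their reads were left out of the library totals. Their part in these values was not tested further.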

How the results depend on the processing

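The numbers of DEGs among the members stayed within 1.5 times under the alternatives, except with median-ratio scaling, which gave 1 in place of 2 in W517NAZ vs. DZ129NAZ and 10 in place of 5 in DZ129NAZ vs. DZ129AZ. Leaving out each library gave 12 to 16 DEGs in W517AZ vs. DZ129AZ, 2 to 3 in W517NAZ vs. DZ129NAZ, 38 to 40 in W517NAZ vs. W517AZ, 4 to 5 in DZ129NAZ vs. DZ129AZ and 44 to 45 members called in the interaction. The replicate block left the counts at 14, 2, 39, 5 and 44 in that order. Same-numbered libraries deviated from their group means with correlations of -0.04 to 0.02, and 0 of 18 pairs were over 0.1. These values show no shared effect of the replicate number. They cannot tell whether same-numbered samples came from the same plants, because the sources do not say what a replicate was. LOC_Os03g39610 was called in the interaction with median-ratio scaling and with voom, at adjusted p of 0.0413 and 0.0223 in limma, and without replicate 1 of DZ129AZ, W517AZ or W517NAZ.

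The log2 ratio of the summed FPKM, -0.81 in W517AZ vs. DZ129AZ, was -0.70 when the median over members replaced the sum. In W517NAZ vs. DZ129NAZ the sum gave 0.017, median-ratio scaling 0.095 and the median over members -0.11. In W517NAZ vs. W517AZ it was 1.52, and 1.65 with median-ratio scaling, 1.22 with the median and 1.47 without the endosperm reads. In DZ129NAZ vs. DZ129AZ it was 0.70, and 0.80 with median-ratio scaling.

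The sign of 11 members' values changed under an alternative. With median-ratio scaling, quantile normalization and the totals without endosperm reads, LOC_Os12g17600 was at 0.032, 0.052 and 0.040 in W517AZ vs. DZ129AZ, and at -0.057 to 0.033 with a library left out. In W517NAZ vs. DZ129NAZ, median-ratio scaling gave 0.027 for LOC_Os02g10390 and 0.0078 for LOC_Os01g31690. Quantile normalization gave -0.13 for LOC_Os06g21590, -0.018 for LOC_Os08g33820, -0.058 for LOC_Os07g04840, -0.072 for LOC_Os03g56670, -0.17 for LOC_Os05g48630, -0.10 for LOC_Os12g23200 and -0.042 for LOC_Os07g37030. It gave -0.050 for LOC_Os11g07020 in DZ129NAZ vs. DZ129AZ, where leaving out a library gave -0.015 to 0.033. Over all genes tested, a pseudocount of 1 gave 4214, 4056 and 4385 DEGs in place of 6480, 6635 and 6712 in W517AZ vs. DZ129AZ, W517NAZ vs. DZ129NAZ and DZ129NAZ vs. DZ129AZ. Median-ratio scaling moved the median of all genes from -0.13 to -0.015 in W517NAZ vs. W517AZ, and quantile normalization moved it from -0.07 to 0.12 in W517NAZ vs. DZ129NAZ. Of the class sums in W517NAZ vs. DZ129NAZ, photosystem II was at -0.13 with the median over members and -0.013 to 0.023 with a library left out. Photosystem I was at 0.025 with median-ratio scaling and 0.063 with the median over members. The electron carriers were at 0.077 with median-ratio scaling, 0.0053 without the endosperm reads and -0.017 to 0.019 with a library left out. The causes were not tested.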
